A study of Mus musculus with 8 samples.

Results

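The SR splicing factors with poison exons are 10 mouse genes, *Srsf1*, *Srsf2*, *Srsf3*, *Srsf4*, *Srsf5*, *Srsf6*, *Srsf7*, *Srsf10*, *Srsf11*, and *Tra2b*, taken by symbol from the 52550 genes of the count table. All 10 were among the 10754 genes tested. Their mRNAs were measured by RNA immunoprecipitation and sequencing (RIP-seq), in which an antibody against the Flag tag recovers a tagged protein with its RNA and input RNA is sequenced beside it. All cells were embryonic stem cells (ESCs) with a knockout (KO) of *Eif4a2*, which encodes a DEAD-box helicase of translation initiation, and all were grown in ES-DMEM with the inhibitors CHIR99021 (1.5 µM) and PD0325901 (0.5 µM) and with LIF (10 ng/ml). They carried an empty vector (EV), and so no Flag-tagged protein, or re-expressed full-length Flag-eIF4A2FL from an integrated transgene in clonal lines. Immunoprecipitation took 3 h with 5 µg of anti-Flag antibody. This gave 4 groups of 2 libraries, input EV, input eIF4A2FL, RIP EV, and RIP eIF4A2FL. The replicates of eIF4A2FL were from 2 clones, and no source used here says that the EV libraries came from separate clones, so the spread behind each p-value is that between libraries and may be technical. The labels name Eif4a2 for every library of the rescue cells except in 1 field of RIP eIF4A2FL replicate 2, which reads Eif4a3.

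SR proteins bind pre-mRNA through RNA recognition motifs and recruit the splicing machinery through domains rich in serine and arginine. Many of them limit their own amount. When the protein is abundant, it promotes the inclusion of a poison exon in its own transcript, an exon, often ultraconserved, with a premature termination codon, and nonsense-mediated mRNA decay (NMD) removes the product. NMD acts on RNA that is being translated, and the retention of introns in the nucleus is another known way in which SR genes hold back their mRNA.

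In the GENCODE annotation of GRCm38, the 10 genes have 89 transcripts. Of these, 17 are classed as NMD targets and 29 as retained-intron transcripts. An NMD transcript is annotated for 9 of the 10 genes, and *Srsf10* has none. For 6 genes, an annotated NMD transcript carries an internal exon that is absent from the longest coding transcript and that holds the premature stop codon. *Srsf1*, *Srsf2*, *Srsf5*, and *Srsf10* have no such annotated exon, since the genes were grouped as SR factors that control their own mRNA through NMD. The exons of the 6 genes are given from the first base to the stop codon, which is in capitals. In *Srsf3*, *Srsf7*, and *Srsf11* the stop follows within 31 bases of the start of the exon, in *Tra2b* after 78 bases, in *Srsf4* after 112 bases, and in *Srsf6* after 149 bases. The reading frame holds no earlier stop in any of them, although the annotated frame of the *Srsf4* transcript starts incomplete. The sequences are on GRCm38, 5′ to 3′, at chr17:29039454-29039487 on the plus strand for *Srsf3*, chr4:131884276-131884390 on the plus strand for *Srsf4*, chr2:162932815-162932966 on the plus strand for *Srsf6*, chr17:80205054-80205081 on the minus strand for *Srsf7*, chr3:158024209-158024231 on the minus strand for *Srsf11*, and chr16:22259181-22259261 on the minus strand for *Tra2b*.
Srsf3: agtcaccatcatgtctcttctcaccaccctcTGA
Srsf4: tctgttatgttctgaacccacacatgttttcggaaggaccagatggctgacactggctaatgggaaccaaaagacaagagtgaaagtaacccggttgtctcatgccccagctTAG
Srsf6: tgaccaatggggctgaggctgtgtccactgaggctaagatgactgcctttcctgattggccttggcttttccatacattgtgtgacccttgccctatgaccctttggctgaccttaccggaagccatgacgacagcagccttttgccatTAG
Srsf7: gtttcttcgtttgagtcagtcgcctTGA
Srsf11: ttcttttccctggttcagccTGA
Tra2b: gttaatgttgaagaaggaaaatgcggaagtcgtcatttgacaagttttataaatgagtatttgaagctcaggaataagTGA

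**Figure D1:**
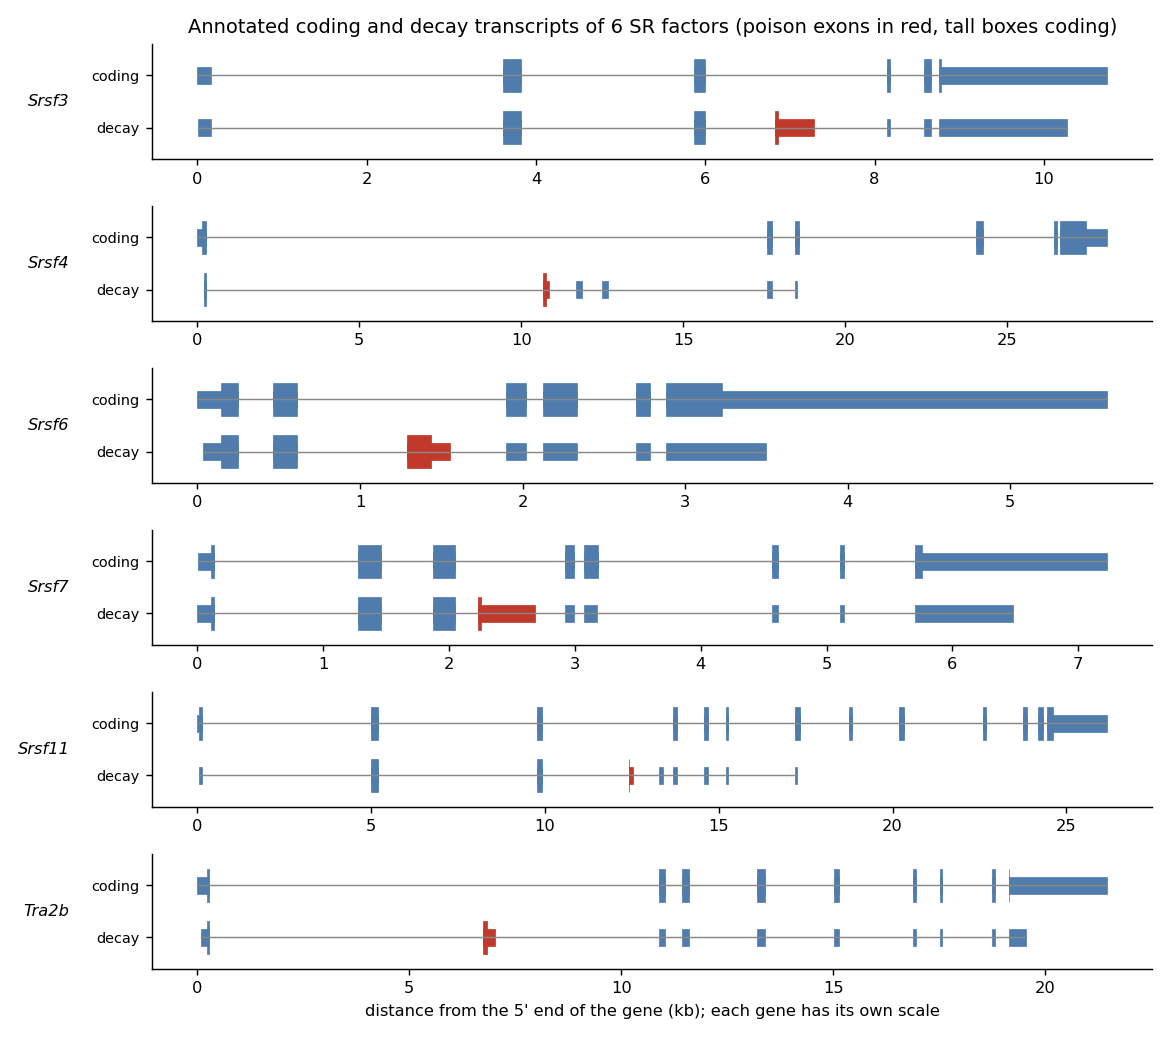
Exons of the longest coding transcript and of 1 annotated NMD transcript (labelled decay) of 6 genes, placed by distance in kb from the 5′ end of the gene. Tall boxes are coding and the red exon is the poison exon, which is missing from the coding transcript in all 6 genes and in which the coding part of the decay transcript ends.

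QuantSeq library preparation gives tags close to the 3′ ends of polyadenylated transcripts, and these tags were counted per gene. Of the 17 NMD transcripts, 9, in 7 of the genes, share their last exon with a coding transcript. In these 7 genes, tags in a shared last exon do not tell productive from NMD transcripts. The NMD transcripts of *Srsf4* and *Srsf5* share no last exon with a coding transcript, and *Srsf10* has none. Since counts are per gene, every value is the sum over the transcripts of a gene. Since a transcript gives about 1 tag whatever its length, CPM (a gene's reads scaled to a common total of gene reads) needs no correction for length between genes. Reads without a unique alignment, 27.0% to 52.1% per library, were not counted. Their share per gene is not known, so an order of levels between genes is an order of counted reads.

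Gene reads came to between 2044853 and 11206420 per library, and the 10 genes took 7612 to 32472 of them, or 0.257% to 0.514%. No gene of the group had fewer than 30 reads in any library. All 9 ESC markers had at least 1 CPM in every input, and all 5 primitive endoderm markers stayed under 1 CPM there. The RIP EV libraries stand apart. The typical difference between replicates of a gene, as a coefficient of variation, was 159% in RIP EV and between 23.0% and 30.0% in the other groups. Of the tested genes, 1961 had 0 reads in both RIP EV libraries and another 3300 in 1 of them, whereas 69 had 0 reads in either RIP eIF4A2FL library. Depth differed too, with 2044853 and 3345151 gene reads in RIP EV, compared with 11206420 and 9976801 in RIP eIF4A2FL. Reads that fell in no counted gene made up 45.8% and 29.7% in RIP EV and 3.30% and 4.13% in RIP eIF4A2FL. In the inputs they made up 8.58% to 17.6%. The part of depth in the 0 counts was not tested. Nuclear noncoding RNAs, 6 in the list, summed to 6668 and 8706 CPM in RIP EV, to 334 and 462 CPM in RIP eIF4A2FL, and to between 1155 and 1728 CPM in the inputs. *Meg3* held 5128 and 6929 CPM of the RIP EV sums. *Malat1* and *Mirg* were also above input EV, and *Rian* overlapped with it. *Neat1* (0 and 33.5 CPM against 77.4 and 66.5 CPM) and *Kcnq1ot1* (0 and 0 CPM against 12.2 and 16.5 CPM) were below input EV. The part of these RNAs in the results was not tested.

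In the inputs, the 10 mRNAs spanned levels from 24.3 to 1688 CPM and did not pass the test between the cell lines. *Srsf1*, an SR protein of 5′ splice site choice, was the most abundant, at 1089.7 and 1688 CPM in the EV inputs, compared with 855 and 883 CPM in the eIF4A2FL inputs. *Srsf11*, which is linked to the factor U2AF at 3′ splice sites, followed with 601 and 607 CPM in the EV inputs, compared with 673 and 397 CPM in the eIF4A2FL inputs. *Srsf2*, which encodes a protein of nuclear speckles, had 594 and 604 CPM in the EV inputs, compared with 490.4 and 673 CPM in the eIF4A2FL inputs. In both cell lines *Srsf1* lay above these others in all libraries. *Srsf11* and *Srsf2* did not differ beyond their spread in input eIF4A2FL and overlapped in input EV too.

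*Srsf3*, the smallest SR protein, had 411 and 361 CPM in the EV inputs, compared with 399 and 408 CPM in the eIF4A2FL inputs. *Tra2b*, *Srsf7*, *Srsf6*, and *Srsf10* followed, with group means of 157 to 193 CPM in input EV, where neighbours in that order overlapped, and of 131 to 187 CPM in input eIF4A2FL, where *Srsf10* was below the others. Per library, in the order of the EV and then the eIF4A2FL inputs, *Tra2b* had 200.3, 186, 215, and 159 CPM. *Srsf7* had 209, 131, 169, and 179.9 CPM, the widest spread of these 4 genes in input EV. *Srsf6* had 185, 155, 179.6, and 163 CPM, and *Srsf10* had 149, 165, 147, and 115 CPM. *Srsf4* (32.1 and 48.1 CPM with EV, 51.7 and 39.5 CPM with eIF4A2FL) and *Srsf5* (31.0 and 29.3 CPM, then 35.3 and 24.3 CPM) were the lowest, and *Srsf4* lay above *Srsf5* in both inputs. Between the inputs, the quasi-likelihood test of edgeR, adjusted by the Benjamini-Hochberg method, called 0 of the 10 genes, beside a background of 0.0% of all genes tested. At an unadjusted p under 0.05 it also had 0 of them, beside 1.25% of all genes, and DESeq2 called 0. The largest difference was that of *Srsf1*, with a log2 fold change of -0.65 ± 0.42 (SE) in input eIF4A2FL against input EV. Both input eIF4A2FL libraries were below both input EV libraries for *Srsf1* and *Srsf10*, 2 of the 10 genes, where 17.3% of all genes tested were below, and for none of the 10 were they above, where 19.8% were. A lower level can be fewer cells with the mRNA or less of it per cell, which bulk samples cannot tell apart.

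**Figure D2:**
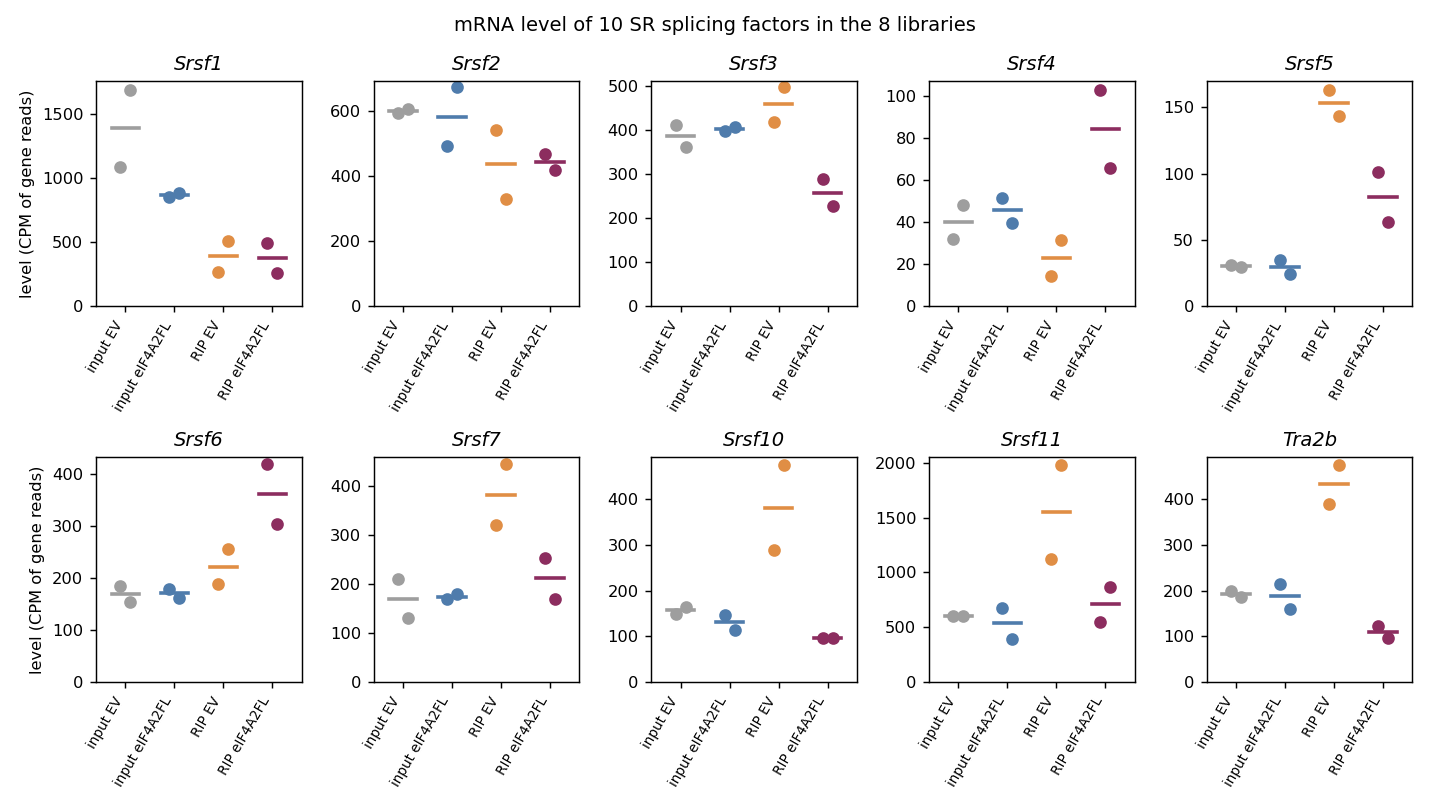
Level of each of the 10 mRNAs in CPM in the 8 libraries, with 1 point per library and a line at the mean of the 2 libraries of a group. Each panel has its own scale from 0. By group mean, *Srsf3*, *Srsf5*, *Srsf7*, *Srsf10*, *Srsf11*, and *Tra2b* are highest in RIP EV, *Srsf4* and *Srsf6* in RIP eIF4A2FL, and *Srsf1* and *Srsf2* in input EV.

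The immunoprecipitate from cells without a Flag-tagged protein held more of several SR factor mRNAs, relative to its other RNA, than the input did. *Srsf5* rose 5.03-fold, *Srsf10* 2.40-fold, and *Tra2b* 2.21-fold in RIP EV against input EV, and *Srsf1* fell by 1.83 on the log2 scale. The edgeR test called 3 of the 10 genes higher, beside 4.5% of all genes tested, and 1 lower, beside 26.3%. The median log2 fold change was 0.75 over the 10 genes and -0.64 over all genes tested. Over the 3667 genes whose mean CPM was at least that of *Srsf4*, the lowest of the 10 by mean, the median was -0.26, 8.34% were called higher, and 11.5% lower. Under all 4 scalings tried, 2 of the 10 genes were below the median of all genes.

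*Srsf5*, an SR protein with a pair of RNA recognition motifs, had 163 and 143 CPM in RIP EV. Both values were far above the 31.0 and 29.3 CPM of input EV, and *Srsf5* had the largest rise of the group (log2 fold change 2.33 ± 0.46 SE, edgeR adjusted p = 0.0108). *Srsf10* (chr4:135855747-135869908, plus strand), which represses splicing when it is dephosphorylated in stress and mitosis, had 289 and 474 CPM in RIP EV against 149 and 165 CPM in input EV (1.27 ± 0.33 SE, edgeR adjusted p = 0.0284). *Tra2b* (chr16:22244549-22266005, minus strand), which activates exons rich in GAA repeats, had 391 and 474 CPM in RIP EV against 200.3 and 186 CPM in input EV (1.15 ± 0.30 SE, edgeR adjusted p = 0.0280). In each of these 3 genes, both RIP libraries lay above both inputs.

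*Srsf11* and *Srsf7* were also above input in both RIP EV libraries and did not pass the threshold. *Srsf11* had the highest level of any of the 10 genes in any library, 1977 CPM, in RIP EV replicate 2, and 1124 CPM in replicate 1 (log2 fold change 1.34 ± 0.42 SE, edgeR adjusted p = 0.0542). *Srsf7*, which with *Srsf3* is known for its part in mRNA export, had 321 and 444 CPM in RIP EV, compared with 209 and 131 CPM in input EV (1.13 ± 0.38 SE, edgeR adjusted p = 0.0655). *Srsf6* had 188 and 256 CPM in RIP EV, compared with 185 and 155 CPM in input EV, and *Srsf3* had 419 and 498 CPM in RIP EV. Both of these genes were above input by CPM, but their libraries overlapped once scaled by TMM factors.

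The remaining 3 genes lay on the other side. *Srsf1* had 272 and 514 CPM in RIP EV, below both inputs (log2 fold change -1.83 ± 0.43 SE, edgeR adjusted p = 0.0190). *Srsf2* had 541 and 329 CPM in RIP EV (-0.46 ± 0.32 SE, edgeR adjusted p = 0.355), and *Srsf4* had 14.7 and 31.7 CPM (-0.79 ± 0.58 SE, edgeR adjusted p = 0.379). By CPM, RIP EV was entirely above input EV for 7 of the 10 genes, beside 14.6% of all genes tested, and entirely below for 3, beside 44.9%. A gene on the opposite strand, *Gm12992*, covers the 3′ end of *Srsf4* and had 133 reads in RIP EV replicate 1, where *Srsf4* had 30. The strand setting of the counting is not given in the sources used here, so reads of the pair cannot be told apart.

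The calls of RIP EV against input EV depended on single libraries. *Srsf1* was called in 7 of the 8 fits that left out 1 library, and lost its call without input EV replicate 2. *Srsf5* was called in 6 of 8, and not without input EV replicate 1 or 2. *Srsf10* and *Tra2b* were called in 4 of 8, and not without either input EV or either RIP eIF4A2FL library. The direction held in all of these fits. The order of levels in RIP EV differed from that of the inputs. *Srsf11* was first, at 1551 ± 603 CPM (SD, n = 2), followed by 6 genes from *Srsf3* (458 CPM) to *Srsf10* (381 CPM), neighbours among which overlapped, then *Srsf6*, *Srsf5*, and *Srsf4* (23.2 CPM), fully apart from each other. With the 4 libraries of the comparison alone, edgeR called none of the 10 genes and none of all genes tested, and 5 of the 10 had an unadjusted p under 0.05, beside 29.5% of all genes. DESeq2 on these libraries called 2 higher, beside 2.97%, and 1 lower, beside 4.68%.

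With Flag-eIF4A2FL present, *Srsf1*, *Srsf3*, and *Tra2b* were lower in the immunoprecipitate than in input and *Srsf5*, *Srsf6*, and *Srsf4* were higher, in both libraries, but edgeR over 8 libraries called none of them. The test called 0 of the 10 genes, beside 0.0558% of all genes tested in either direction, and 5 of the 10 had an unadjusted p under 0.05, beside 8.95%. DESeq2 over 8 libraries called *Srsf3* and *Tra2b* lower, 2 of 10, beside 4.0% of all genes, and none higher, beside 2.55%. When edgeR was run on the 4 libraries of the comparison, without the spread of RIP EV, it called *Srsf1*, *Srsf3*, and *Tra2b* lower, 3 of 10, beside 8.46% of all genes, and *Srsf5* higher, 1 of 10, beside 8.44%. DESeq2 on those libraries called 3 of the 10 genes lower, beside 10.2%, and 1 higher, beside 9.27%.

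*Srsf1* had 494 and 260.4 CPM in RIP eIF4A2FL, below both of its inputs (log2 fold change -1.51 ± 0.42 SE, edgeR adjusted p over 8 libraries = 0.343). *Srsf3* had 288 and 227 CPM, against 399 and 408 CPM in input eIF4A2FL (-0.95 ± 0.26 SE, edgeR adjusted p over 8 libraries = 0.327). *Tra2b* had 122 and 97.0 CPM, against 215 and 159 CPM in input (-1.08 ± 0.30 SE, edgeR adjusted p over 8 libraries = 0.338). In all 3 genes the RIP and input libraries were fully apart. *Srsf10* (96.8 and 97.1 CPM against 147 and 115 CPM) and *Srsf2* (466 and 419 CPM against 490.4 and 673 CPM) were also below input in both libraries, with log2 fold changes of -0.74 and -0.70.

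*Srsf5* had 101 and 63.7 CPM in RIP eIF4A2FL, above its inputs (log2 fold change 1.16 ± 0.44 SE, edgeR adjusted p over 8 libraries = 0.510). *Srsf6* had 421 and 305 CPM, against 179.6 and 163 CPM in input (0.77 ± 0.31 SE, edgeR adjusted p over 8 libraries = 0.530), and *Srsf4* had 103 and 65.9 CPM, against 51.7 and 39.5 CPM (0.57 ± 0.57 SE). *Srsf7* (254 and 170.3 CPM) and *Srsf11* (551 and 866 CPM) overlapped with their inputs. In RIP eIF4A2FL, *Srsf11* was first in level, at 708 ± 223 CPM (SD, n = 2), followed by *Srsf2*, *Srsf1*, and *Srsf6*, which overlapped, then by *Srsf3* and *Srsf7*, which overlapped too. *Tra2b*, *Srsf10*, *Srsf4*, and *Srsf5* had the lowest means, from 109.6 to 82.5 CPM, and neighbours among them did not differ beyond their spread. By CPM, 3 of the 10 genes were entirely above input, beside 45.8% of all genes tested, and 5 entirely below, beside 18.7%. The median log2 fold change was -0.36 over the 10 genes and 0.02 over all genes tested. With library size alone in place of TMM factors, the medians were -0.06 and 0.32, and *Srsf7* moved from -0.02 to 0.28. With 1 library left out, the log2 fold change ran from -1.98 to -1.10 for *Srsf1* and from -1.07 to -0.77 for *Srsf3*. It ran from -1.31 to -0.82 for *Tra2b* and from 0.85 to 1.48 for *Srsf5*.

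**Figure D3:**
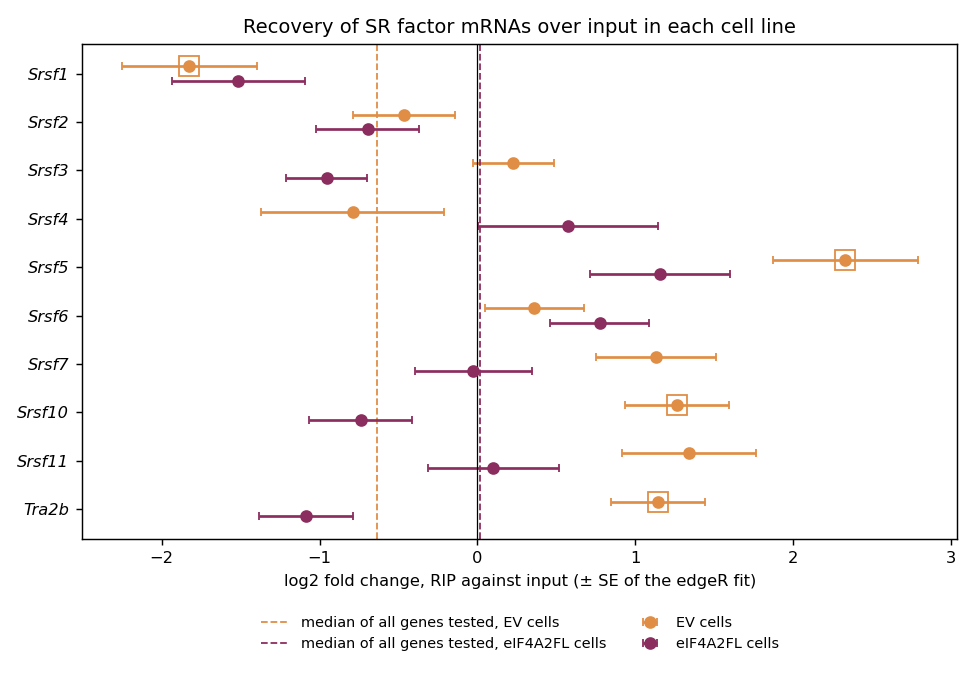
Log2 fold change of RIP against input for the 10 genes in EV cells and in eIF4A2FL cells, from the edgeR fit of all 8 libraries. Points are fitted values, bars ± SE, open squares mark adjusted p under 0.05, and dashed lines the medians of all genes tested (-0.64 and 0.02). *Srsf10* and *Tra2b* lie above 0 in EV cells and below 0 in eIF4A2FL cells.

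Between the 2 immunoprecipitates, 4 of the 10 mRNAs were called lower with Flag-eIF4A2FL than with the empty vector. *Tra2b* fell by 2.26, *Srsf10* by 2.25, *Srsf11* by 1.40, and *Srsf3* by 1.11 on the log2 scale. These 4 edgeR calls stood beside 5.46% of all genes tested called lower, and 0 of the 10 were called higher, beside 24.8%. At an unadjusted p under 0.05 it had 6 lower, beside 9.48% of all genes, and 1 higher, beside 29.8%. DESeq2 over 8 libraries called 6 lower, beside 10.5%, and 1 higher, beside 30.4%. The median log2 fold change was -1.12 over the 10 genes and 0.64 over all genes tested. Among the 3667 genes at least as abundant as *Srsf4*, the median was 0.21, with 10.8% called lower and 10.2% higher. With library size alone the medians were -0.84 for the 10 genes and 0.91 for all.

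For *Tra2b*, the 391 and 474 CPM of RIP EV compared with 122 and 97.0 CPM in RIP eIF4A2FL (log2 fold change -2.26 ± 0.31 SE, edgeR adjusted p = 0.00662), and 5.68% of the tested genes had a lower fold change. For *Srsf10*, 289 and 474 CPM compared with 96.8 and 97.1 CPM (-2.25 ± 0.34 SE, edgeR adjusted p = 0.00662). These calls were kept in all 8 fits that left out 1 library. For *Srsf3* (chr17:29032628-29043373, plus strand), 419 and 498 CPM compared with 288 and 227 CPM (-1.11 ± 0.26 SE, edgeR adjusted p = 0.0184), a call that was lost without RIP eIF4A2FL replicate 1 or 2. For *Srsf11* (chr3:158010473-158036639, minus strand), 1124 and 1977 CPM compared with 551 and 866 CPM (-1.40 ± 0.42 SE, edgeR adjusted p = 0.0480), and this call was kept in 1 of the 8 fits, that without RIP EV replicate 1. Its log2 fold change was -0.85 without RIP EV replicate 2.

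*Srsf5* and *Srsf7* were also lower in both RIP eIF4A2FL libraries, with log2 fold changes of -1.18 ± 0.44 (edgeR adjusted p = 0.0950) and -1.13 ± 0.38 (SE, edgeR adjusted p = 0.0662). *Srsf1* and *Srsf2* overlapped between the immunoprecipitates and had values of -0.34 ± 0.41 and -0.26 ± 0.32 (SE), whose sign turned for *Srsf1* without RIP EV replicate 2 (0.27) or RIP eIF4A2FL replicate 2 (0.16), and for *Srsf2* without RIP EV replicate 1 (0.18) or with library size alone (0.026). *Srsf4* and *Srsf6* were the exceptions. *Srsf4* had a log2 fold change of 1.58 ± 0.59 (SE, edgeR adjusted p = 0.0910) and *Srsf6* of 0.43 ± 0.31 (SE, edgeR adjusted p = 0.377), with both RIP eIF4A2FL libraries above both RIP EV libraries. In all, RIP eIF4A2FL was entirely below RIP EV for 6 of the 10 genes, beside 12.1% of all genes tested, and entirely above for 2, beside 51.9%. The number of the 10 genes called changed with the library left out, and so did the number among all genes tested. With 1 library left out, the log2 fold change ran from -2.54 to -1.77 for *Srsf10* and from -1.72 to -0.85 for *Srsf11*. It ran from -1.203 to -0.848 for *Srsf3* and was negative in every such fit for *Tra2b*. On the 4 immunoprecipitates alone, edgeR called none of the 10 and none of all genes. There, 5 of the 10 had an unadjusted p under 0.05, beside 29.3% of all genes. DESeq2 on these 4 libraries called 4 of the 10 lower, beside 4.96%, and 0 higher, beside 7.75%.

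**Figure D4:**
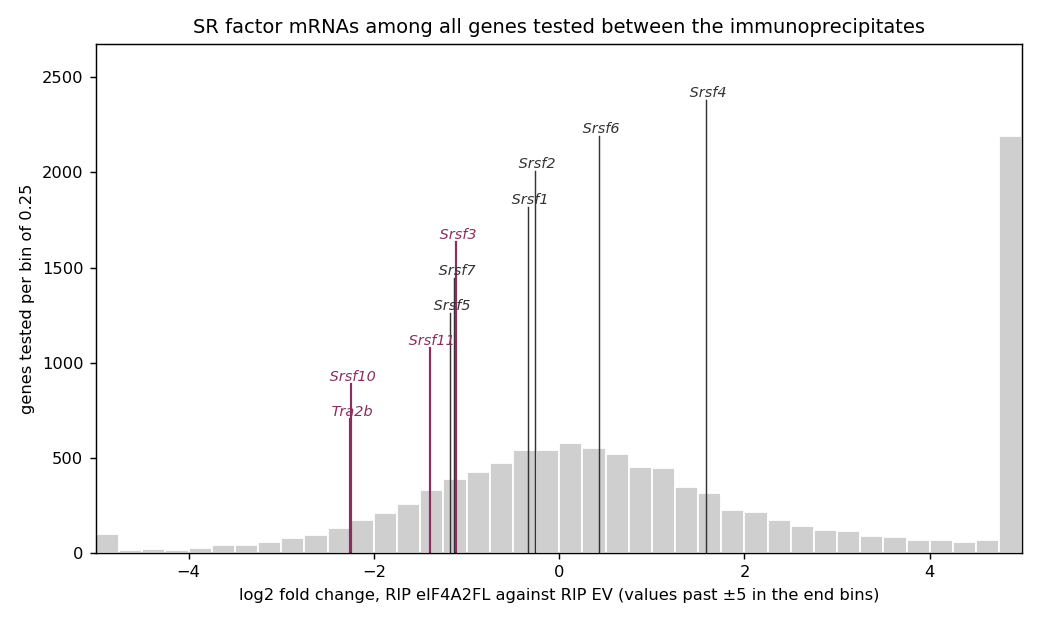
Number of tested genes per bin of the log2 fold change of RIP eIF4A2FL against RIP EV (grey bars, values past ±5 in the end bins), with a line for each of the 10 genes, coloured where the adjusted p was under 0.05. The height of a line carries no value. *Tra2b*, *Srsf10*, *Srsf11*, and *Srsf3* are called, all below 0, and *Srsf4* and *Srsf6* lie above 0.

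The difference between the cell lines in RIP over input was tested as an interaction. It passed for *Tra2b* (log2 difference -2.23 ± 0.42 SE, edgeR adjusted p = 0.0176) and *Srsf10* (-2.01 ± 0.47 SE, edgeR adjusted p = 0.0263), in which recovery over input was lower with Flag-eIF4A2FL. These were 2 of the 10 genes, beside 2.1% of all genes tested, and 0 of the 10 were called higher, beside 19.2%. Among the 3667 genes at least as abundant as *Srsf4*, 4.85% were called lower and 3.82% higher. *Srsf3* had a difference of -1.18 ± 0.36 (SE, edgeR adjusted p = 0.0653), and *Srsf11*, *Srsf5*, and *Srsf7* had differences of -1.24, -1.17, and -1.16 that did not pass. *Srsf4* had a difference of 1.36 ± 0.81 (SE, edgeR adjusted p = 0.347). With 1 library left out, the log2 difference ran from -2.45 to -1.97 for *Tra2b* and from -2.29 to -1.53 for *Srsf10*. The direction held in all of these fits, but neither call did. With counts thinned to the smallest total, 0 of the 10 genes passed, beside 0 of all genes. With the replicate number as a block 1 passed, beside 1604 genes higher and 134 lower. DESeq2 on 8 libraries called 3 lower, beside 2631 genes higher and 608 lower. The interaction shares its libraries with the comparisons above and is no separate evidence.

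Of the rest of the family, *Tra2a*, the paralog of *Tra2b*, had 642 and 461 CPM in RIP EV, 159 and 149.8 CPM in RIP eIF4A2FL, and 163 to 206 CPM in the inputs. It rose in RIP EV against input (log2 fold change 1.57, edgeR adjusted p = 0.0115) and was lower in RIP eIF4A2FL than in RIP EV (-2.12, edgeR adjusted p = 0.00662). *Srsf9* had 142 and 166 CPM in RIP EV, compared with 506 and 428 CPM in RIP eIF4A2FL. It fell in RIP EV against input (-0.93, edgeR adjusted p = 0.0489) and was higher in RIP eIF4A2FL than in RIP EV (1.32, edgeR adjusted p = 0.0142). *Srsf12* had at most 3 reads in any library and was not tested.

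Among the genes around the SR factors, those of other SR-related proteins and of their kinases had medians above 0 in RIP EV against input, at 1.07 and 0.95 on the log2 scale, and those of hnRNP proteins and of the core spliceosome had -0.62 and 0.09, beside -0.64 over all genes tested. The shares of all genes tested that edgeR called there were 4.5% higher and 26.3% lower. Of 26 other SR and SR-related genes tested, 8 were called higher and 3 lower (*Rnps1*, *Snrnp70*, and *Srsf9*). Of the 9 kinase and importer genes, 3 were called higher (*Clk1*, *Clk4*, and *Srpk2*, whose products phosphorylate SR proteins) and 1 lower (*Tnpo3*, the importer that carries SR proteins into the nucleus). Of 25 hnRNP genes, 1 was higher (*Hnrnpdl*) and 3 lower (*Hnrnpa0*, *Pcbp1*, and *Ptbp1*), and of 38 genes of the core spliceosome, 1 was higher (*Prpf8*) and 7 lower. The genes named in these brackets were chosen after their values were seen. *Clk1* had 88.0 and 119 CPM in RIP EV, against 13.5 and 13.1 CPM in input EV and 31.1 and 27.3 CPM in RIP eIF4A2FL. *Clk4* had 158 and 124 CPM in RIP EV, against 22.1 and 24.2 CPM in RIP eIF4A2FL, and its libraries did not overlap.

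Between the immunoprecipitates, where edgeR called 5.46% of all genes lower and 24.8% higher, 10 of the 26 other SR and SR-related genes were lower with Flag-eIF4A2FL and 2 higher (*Rnps1* and *Srsf9*), and 4 of the 9 kinase and importer genes were lower (*Clk1*, *Clk4*, *Prpf4b*, and *Srpk2*) and 1 higher (*Tnpo3*). Of the hnRNP genes, 3 were lower (*Hnrnpa2b1*, *Hnrnpdl*, and *Hnrnpm*) and 3 higher (*Hnrnpa0*, *Hnrnpl*, and *Hnrnpul2*), and of the core spliceosome genes, 1 was lower (*Prpf3*) and 7 higher. Again, the names followed from the values. In RIP eIF4A2FL against input, edgeR over 8 libraries called none of the genes of these 4 lists, of which 7, 0, 3, and 9 had an unadjusted p under 0.05, beside 8.95% of all genes. In the order of the lists, the highest and lowest log2 fold changes there were 1.42 (*Scaf4*) and -1.92 (*Rsrc1*) for SR-related genes, 0.81 (*Clk2*) and -0.71 (*Srpk1*) for kinases, 0.77 (*Hnrnph1*) and -1.57 (*Hnrnpa3*) for hnRNP genes, and 2.24 ± 1.64 SE (*Dhx8*, with 1 and 511 reads in the RIP EV libraries) and -1.38 (*Snrpd3*) for the core spliceosome.

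**Figure D5:**
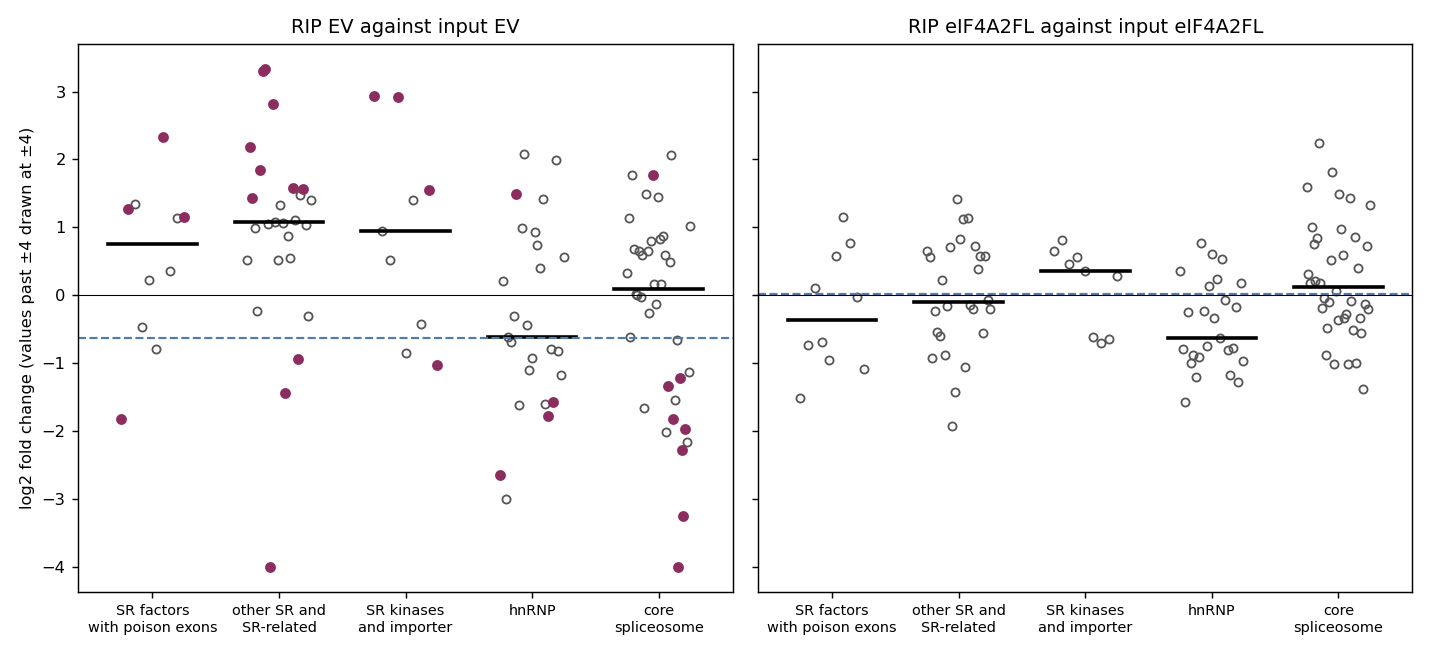
Log2 fold change of RIP against input in EV cells (left) and eIF4A2FL cells (right) for the 10 genes and for 4 lists of genes around them, from the edgeR fit of 8 libraries. Each point is a gene, filled where the adjusted p was under 0.05, black lines are list medians, values past ±4 are drawn at ±4, and the dashed line is the median of all genes tested (-0.64 and 0.02). Called genes appear in EV cells, and none in eIF4A2FL cells.

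Over the 8 libraries, *Srsf10* and *Tra2b* had the most similar profiles among the 10 genes (Pearson r = 0.96 of log2(CPM + 1)), followed by *Srsf3* and *Tra2b* (0.86), while *Srsf2* and *Srsf11* were the most opposed (-0.80). Outside the group, the genes whose profile was most like the mean of the 10 were *Prpf38a*, a splicing factor (r = 0.99), *Mnt*, a repressor that binds MAX (0.96), *Zc3h7a* (0.96), *Pes1*, a factor of ribosome assembly (0.96), and *Paf1*, a subunit of the PAF complex of transcription elongation (0.96). *Prpf38a* had 70.4 and 134 CPM in RIP EV, 49.0 and 23.6 CPM in RIP eIF4A2FL, and 30.7 to 37.3 CPM in the inputs. These 8 points share their libraries and totals, and the RIP EV libraries hold the highest values of the mean profile, so the correlations are descriptions.

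Of the targeted gene, *Eif4a2*, reads were counted in all 8 libraries, with 53.8 to 94.2 CPM in the inputs and edgeR adjusted p above 0.3 in every comparison. Counts per gene do not check the KO, since a disrupted gene can still be transcribed and a transgene may lack the counted 3′ end. *Meg3*, a nuclear noncoding RNA that the study used as a negative control, had 5128 and 6929 CPM in RIP EV, compared with 241 and 346 CPM in RIP eIF4A2FL, a log2 fold change of -4.63 ± 0.36 (SE, edgeR adjusted p = 0.00662) between them, in the direction of *Tra2b* and *Srsf10*.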

How the data were processed

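RNA from anti-Flag immunoprecipitates and inputs of *Eif4a2* KO ESCs was sequenced in 8 libraries, 4 groups of 2. According to the methods, the authors trimmed QuantSeq reads with bbduk, aligned them with STAR (version 2.5.3a, build mm10), and ran HTSeq-count (version 0.11.2). Raw counts per gene were deposited without normalization. Neither annotation release nor strand setting was given in the sources used here. Of the gene identifiers, 52403 matched GENCODE M21 on GRCm38, which gave names, transcripts, and positions. Sequences were read from the RefSeq copy of GRCm38.

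The table's 5 summary lines stayed out of totals and tests. Gene reads came to 2044853 to 11206420 per library, and CPM used these totals. Genes with at least 1 CPM in all 4 inputs were tested, 10754 in all. All 8 libraries entered 1 quasi-likelihood model with TMM factors in edgeR (version 4.0.16, under R version 4.3.3), and p-values were adjusted over all genes by the Benjamini-Hochberg method, with a threshold of 0.05. SE is the log2 fold change over the root of the F statistic. Groups of 2 libraries limit the precision of every value.

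Alternatives were edgeR on the 4 libraries compared, DESeq2 (version 1.42.0) on these or on all 8, library size alone or DESeq2 size factors for scaling, filterByExpr or no filter, thinning to the smallest total, the replicate number as a block, and leaving out each library. The members and lists were chosen with earlier results of these data known. By rule, all 10 genes, *Srsf9*, *Srsf12*, *Tra2a*, *Eif4a2*, and *Meg3* were named, with the highest and lowest fold change of each list in RIP eIF4A2FL against input and the 5 genes of most similar profile. Of formative and primed markers, 3 of 5 had at least 1 CPM in all inputs, and of fibroblast markers 4 of 5 were under 1 CPM in all. Near-identical copies were searched with the last 500 bases of each gene. Besides overlapping genes of the opposite strand, at *Srsf1*, *Srsf2*, and *Srsf4*, 1 gene, *AC126031.3*, matched *Srsf10* at 94.7% identity.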

Additional observations from a re-analysis of the deposited data

Results flagged for a closer look

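For 4 of the 10 genes, recovery over input differed between EV and eIF4A2FL cells in a way that calls for a second look. For *Tra2b* and *Srsf10* the difference itself passed the edgeR test over 8 libraries, with log2 differences of -2.23 (adjusted p = 0.0176) and -2.01 (edgeR adjusted p = 0.0263). Neither passed with thinned counts. For *Srsf3* both RIP EV libraries were above both inputs by CPM and both RIP eIF4A2FL libraries below theirs, and the log2 difference of -1.18 did not pass (edgeR adjusted p = 0.0653). Once scaled by TMM factors, the libraries of *Srsf3* in EV cells overlapped. For *Srsf4* the libraries moved the opposite way in each cell line, lower in RIP EV and higher in RIP eIF4A2FL, and the log2 difference of 1.36 did not pass (edgeR adjusted p = 0.347). In EV cells the gap was narrow, 31.7 CPM in RIP EV replicate 2 against 32.1 CPM in input EV replicate 1. *Srsf4* had 30 reads in RIP EV replicate 1, where the overlapping *Gm12992* had 133. Groups of 2 libraries are too small for a test of single outlying libraries.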

How the results depend on the processing

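The number of the 10 genes called is given here beside the numbers called higher and lower among all 10754 genes tested. In RIP eIF4A2FL against RIP EV it was 4, beside 2664 higher and 587 lower. It was 7 with DESeq2 on 8 libraries, beside 3270 and 1128. It was 0 with edgeR on the 4 compared, beside 0 and 0, and 2 with library size alone, beside 2864 and 431. In RIP eIF4A2FL against input it was 0, beside 0 higher and 6 lower. It was 2 with DESeq2 on 8 libraries, beside 274 and 430. It was 4 with DESeq2 on the 4 compared, beside 997 and 1098, and 4 with edgeR on them, beside 908 and 910. In RIP EV against input it was 4, beside 484 higher and 2828 lower. With DESeq2 on 8 libraries 5 were called higher and 1 lower, beside 1075 and 3442. The number was 0 with edgeR on the 4 compared, beside 0 and 0. In the difference of RIP over input between the cell lines it was 2, beside 2068 higher and 226 lower. It was 0 without the filter on low counts, beside 1953 and 373 of the 22515 genes tested there. It was 0 with thinned counts, beside 0 and 0, and 1 with the replicate block, beside 1604 and 134. Between the inputs it was 0 under every alternative. The cause of these changes was not tested.

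Replicate numbers were shared by all groups, but the deviations of same-numbered libraries correlated at only -0.07 to 0.13 between groups, which does not show that the numbers pair the libraries. With the replicate block, 3 of the 10 genes were called in RIP eIF4A2FL against RIP EV, beside 2438 genes higher and 426 lower. In RIP EV against input 3 were called, beside 318 and 2596. In RIP eIF4A2FL against input 0 were called, beside 0 and 2, and in the difference 1, beside 1604 and 134.

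Log2 fold changes that turned sign were not called on either side. With library size alone, *Srsf2* was 0.026 between the immunoprecipitates and 0.067 in the difference of RIP over input, and *Srsf7* was 0.28 in RIP eIF4A2FL against input (0.022 without the filter). Between the inputs, thinned counts gave 0.031 for *Srsf2*, -0.092 for *Srsf4*, and 0.12 for *Tra2b*, *Srsf5* was 0.0051 with DESeq2 on 8 libraries, 0.010 with its size factors, and 0.00031 without the filter, and *Srsf6* was -0.0016 with edgeR and -0.0023 with DESeq2 on 4 libraries. With 1 library left out, values between the immunoprecipitates ran from -0.73 to 0.27 for *Srsf1* and from -0.48 to 0.18 for *Srsf2*, and those in RIP eIF4A2FL against input from -0.28 to 0.26 for *Srsf7* and from -0.25 to 0.56 for *Srsf11*. Between the inputs they ran from -0.25 to 0.16 for *Srsf2*, -0.091 to 0.25 for *Srsf3*, -0.017 to 0.45 for *Srsf4*, -0.33 to 0.26 for *Srsf5*, -0.17 to 0.23 for *Srsf6*, -0.33 to 0.50 for *Srsf7*, -0.62 to 0.19 for *Srsf11*, and -0.29 to 0.19 for *Tra2b*. In the difference they ran from -0.089 to 0.91 for *Srsf1* and from -0.46 to 0.21 for *Srsf2*. The cause of these turns was not tested.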
